A study of Sus scrofa with 24 samples.

Results

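The 10 genes described here encode catalase (CAT), 3 superoxide dismutases (SOD1, SOD2 and SOD3), a glutathione peroxidase (GPX3), a peroxiredoxin (PRDX1), 3 enzymes known as stress-inducible (HMOX1, NQO1 and TXNRD1) and the thioredoxin-interacting protein (TXNIP). They were chosen by symbol, each matched to 1 pig Ensembl gene identifier, and all 10 were present among the 25462 genes of the expression table and among the 16135 genes that were tested. The values are FPKM, fragments counted per length of transcript and per number of mapped fragments, so that levels can be set side by side between genes as well as between libraries.

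RNA sequencing was carried out on 24 libraries of primary preadipocytes, the fibroblast-like precursors of fat cells, from 6-day-old Yorkshire piglets, 3 in number by the methods of the study. The cells came from 2 depots, fat under the skin of the back (BF) and tissue of the longissimus dorsi muscle (IMF, for intramuscular). They were grown to near confluence and then differentiated in culture. The study digested the muscle with stronger collagenase and for longer than the back fat. Depot and isolation therefore cannot be told apart. Both depots received the same schedule, with IBMX (a phosphodiesterase inhibitor), dexamethasone (a glucocorticoid) and insulin for 2 days, insulin alone for 2 further days and growth medium after that. Each depot was sampled on days 0, 2, 4 and 8 with 3 replicates, which gave 8 groups named by depot and day, from BF-0d to IMF-8d. BF-0d and IMF-0d are the confluent cells before induction, and no group was kept without induction to a later day, so that time in culture and induction cannot be told apart. The labels do not say whether the replicates of a group came from separate piglets, and the p-values below then measure only the spread between these libraries.

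Cells that oxidise fuel in mitochondria and peroxisomes release superoxide and hydrogen peroxide. Superoxide dismutases turn superoxide into hydrogen peroxide, in the cytosol (SOD1), in the mitochondrial matrix (SOD2) or outside the cell (SOD3). Hydrogen peroxide is then removed by catalase in peroxisomes, by glutathione peroxidases, of which GPX3 is secreted into plasma and is known as an adipose product, and by peroxiredoxins, which take their electrons from thioredoxin. Thioredoxin is recharged with NADPH by the reductase TXNRD1 and is bound by TXNIP, a protein that also lowers glucose uptake. HMOX1 degrades haem and NQO1 reduces quinones. NQO1, TXNRD1, HMOX1 and PRDX1 are textbook targets of the transcription factor NRF2 (gene NFE2L2), which KEAP1 keeps inactive and BACH1 opposes. Adipocyte differentiation is known for a rise of mitochondria and of lipid oxidation.

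Promoter stretches are shown for CAT, NQO1, TXNIP and HMOX1, which took different courses, so that the known binding motifs each holds can be read beside its values, together with the oligos by which the study itself measured CAT. Windows from 250 bases before to 50 bases after the annotated start of each gene were read from the pig genome Sscrofa11.1 with the RefSeq annotation, the build named in the study's methods, for 20664 genes. On both strands they were searched for the core of the antioxidant response element bound by NRF2 (TGACNNNGC), the E-box (CACGTG), a forkhead site (GTAAACA) and the NF-Y box (CCAAT). These 4 motifs do not overlap in the matches given. Capitals mark the matches, and a match on the opposite strand reads as its complement (ATTGG).
CAT, chr2:26533892-26533971, minus strand: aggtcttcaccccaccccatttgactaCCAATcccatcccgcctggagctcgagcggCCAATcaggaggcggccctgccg
NQO1, chr6:17292732-17292821, plus strand: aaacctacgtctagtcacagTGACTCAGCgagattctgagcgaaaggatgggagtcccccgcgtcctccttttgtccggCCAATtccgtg
TXNIP, chr4:99348419-99348488, plus strand: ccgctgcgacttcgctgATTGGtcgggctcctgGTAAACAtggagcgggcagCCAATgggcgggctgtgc
HMOX1, positions 1954738 to 1954797 of an unplaced scaffold, plus strand: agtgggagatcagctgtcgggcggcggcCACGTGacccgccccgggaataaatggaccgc
The antioxidant response element core was found in 1 of the 10 members, NQO1, at position -210 from the start, and in 12.2% of all windows. The forkhead site lay in 1 member, TXNIP, at -137, and in 2.69% of all windows. An E-box was present in 1 member, HMOX1, at -62, and in 7.64% of all windows. NF-Y boxes were found in 5 members (CAT at -63 and -33, TXNIP at -153 and -118, NQO1 at -151 and -79, SOD1 and GPX3) against 35.7% of all windows. A match is a description of these letters, and other members may carry such sites outside this window.

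The study's qRT-PCR for CAT used the following pair of oligos, shown because they place the amplified stretch of the transcript.
CAT forward: cgggtcatctgaaagacgca
CAT reverse: ttcagaggcagacggcaac
The forward oligo matched exon 11 of 13, in the coding sequence, at chr2:26496822-26496841, and the reverse oligo matched exon 13, in the 3′ untranslated region, at chr2:26494277-26494295. The amplified stretch of 240 bases was shared by both annotated transcripts of CAT. The gene itself spans chr2:26493664-26533881 on the minus strand. SOD1 lies on chromosome 13, where its annotated span overlaps that of the gene SCAF4 on the opposite strand. Whether exons overlap was not examined. Reads of any shared stretch cannot be told apart because the strand of the libraries is not stated. SOD2 is on chromosome 1, SOD3 on 8, GPX3 on 16, PRDX1 and NQO1 on 6, TXNRD1 on 5 and TXNIP on 4.

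Of the 24 libraries, 0 were duplicates of another. Replicates correlated across genes at 0.987 to 0.994 in the IMF groups and in BF-0d, and at 0.962 to 0.991 in BF-2d, BF-4d and BF-8d. BF-2d replicate 3 and BF-4d replicate 3 stood apart on the first principal component. By root mean square log2 distance from the other 2 libraries of its group, BF-2d replicate 3 (0.481) was close to BF-2d replicate 2 (0.47). BF-4d replicate 3 lay at 0.489, against 0.337 and 0.296 for replicates 1 and 2. On the first principal component BF-2d replicate 3 lay at -17.2, against 26.53 and 27.23 for the other BF-2d libraries and -37.7 to -34.23 for BF-0d. BF-4d replicate 3 lay at 65.08, among the BF-8d libraries (62.55 to 65.46). On this component BF-2d replicate 3 thus lay nearer to BF-0d, and BF-4d replicate 3 nearer to BF-8d, than to the rest of its own labelled group. The labels were kept as given, and whether those of these 2 libraries are right was not tested. Leaving out both together was a choice made after seeing the data. The summed level of the 12 adipocyte markers was 80.6 FPKM in BF-2d replicate 3 and 588 and 735 FPKM in the other BF-2d libraries. It was 23.0 to 37.9 FPKM in the IMF libraries of days 0, 2 and 4, and 220.0 to 270.0 FPKM in IMF-8d, and its part in the members' changes was not tested. This sum was carried by LPL and PCK1, which rose in both depots over the course. PPARG, the master regulator of fat cell formation, was lower in BF-8d than in BF-0d, at -1.04 (SE 0.29, adjusted p = 0.0061), and was lower in IMF than in BF on day 0, at -1.67 (SE 0.29, adjusted p = 0.000466), and on day 2, at -1.15 (SE 0.29, adjusted p = 0.00744). FABP4 was lower in BF-2d than in BF-0d, at -1.15 (SE 0.24, adjusted p = 0.00101), and higher in BF-8d than in BF-4d, at 1.34 (SE 0.24, adjusted p = 0.00063). It was lower in IMF than in BF on day 0 (-1.59) and on day 8 (-1.57). CEBPA was higher in BF-2d (1.67) and lower again in BF-4d (-1.19), and was lower in IMF than in BF on day 2, at -1.42 (SE 0.23, adjusted p = 0.00023). In IMF, CEBPA fell from day 4 to day 8, at -1.33 (SE 0.23, adjusted p = 0.000193). The part of these genes in the members' depot differences was not tested. The adipocyte-defining genes ADIPOQ, PLIN1, LEP and DGAT2 stayed at or below 0.23 FPKM in every library. The summed level of 6 stromal markers was 8340 to 9300 FPKM in BF-0d, 8710 FPKM in BF-2d replicate 3 against 4460 and 5740 FPKM in the other BF-2d libraries, and 2910 to 4500 FPKM in BF-4d and BF-8d. In IMF it was 8530 to 9490 FPKM until day 4 and 4700 to 5250 FPKM on day 8. COL1A1 alone went from 5753 to 676 FPKM in BF by day 4 and from 4364 to 2062 FPKM in IMF between day 4 and day 8. The other 5 markers did not share one course. PDGFRA was higher on day 8 than on day 0 in both depots. Its means on days 0, 2, 4 and 8 were 77.0, 298, 342 and 228 FPKM in BF. In IMF they were 60.1, 105, 144 and 226 FPKM. DCN fell in BF, from 1004 to 497 FPKM, while its IMF means were 777, 1143, 1373 and 929.8 FPKM on days 0, 2, 4 and 8, higher than in BF on day 4 (1.22). BF means on days 0 and 8 were 135 and 183 FPKM for PDGFRB, 1711 and 2131 FPKM for COL3A1, and 262 and 328 FPKM for LUM, none of them called. IMF means were highest on day 2 for COL3A1 (2605 FPKM) and LUM (271 FPKM), were 1606 and 136 FPKM on day 8, and for PDGFRB ran from 84.0 to 98.1 FPKM. LUM was lower in IMF on day 8 (-1.26) and PDGFRB on day 4 (-1.01). The part of these markers in the members' changes was not tested. Defining markers of muscle (MYOD1 and MYF5), of leukocytes (PTPRC) and of red cells (HBB) were at most 0.00835 FPKM, but the muscle marker DES reached 45.3 FPKM in IMF-0d. DES was higher in IMF than in BF on all 4 days, by 2.72, 1.25, 3.61 and 1.33, and fell over the course in both depots, at -2.43 in BF and -3.82 in IMF. Of the endothelial markers, PECAM1 fell in BF from day 0 to day 2, at -1.13 (SE 0.16, adjusted p = 2.56e-05). It was higher in IMF than in BF on day 8, at 1.03 (SE 0.16, adjusted p = 5.43e-05), with a depot difference over the course of 1.08 (SE 0.23, adjusted p = 0.00225). The endothelial markers CDH5, KDR, TEK and EMCN were at most 0.158 FPKM. The part of DES and PECAM1 in the members' changes was not tested. CD14, a monocyte marker of the immune list, was 2.87, 2.10 and 17.1 FPKM in BF-4d, its highest level being that of replicate 3, and its group means were 8.45 FPKM in BF-8d and 7.74 FPKM in IMF-8d against 2.97 to 5.19 FPKM in the other IMF groups. AIF1 of the same list was higher in IMF than in BF on day 4 (0.88, adjusted p = 3.12e-06) and day 8 (0.74, adjusted p = 3.59e-05), below the fold limit. CD68 was lower in IMF on day 8, at -0.43 (adjusted p = 0.0185). The part of CD14, AIF1 and CD68 in the members' changes was not tested. In bulk cultures, fewer cells of a type and less RNA per cell cannot be told apart.

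Differences were tested with limma on log2(FPKM + 1), and a gene was called at an adjusted p under 0.01 with a log2 fold change of at least 1 in either direction. The scale understates changes of genes with low FPKM. The shares of all genes given below include such genes, as 10915 of the 16135 tested had a mean of at least 1 FPKM. Members and lists were chosen with earlier results of these data known, so their counts are descriptive. In BF cells, 6 of the 10 members were called from day 0 to day 2, all higher, where 6.59% of all tested genes were called. This count was 2 to 4 when any 1 of the 6 libraries was left out (4.33% to 10% of all genes), and 1 with only these 6 libraries in the fit (1.47%). The members' median log2 fold change was 1.13, against -0.04 over all tested genes. From day 2 to day 4, 2 members were called (3.35% of all genes), and from day 4 to day 8 limma called 0 (2.93% of all genes), with 7 at an unadjusted p under 0.05 (32.2% of all genes). Without BF-4d replicate 3 this interval had 3 called members (CAT, SOD2 and PRDX1) and 5.16% of all genes. Over the whole course in BF, 7 members were called, all higher, against 13.7% of all genes, and the median of the members was 1.89 against -0.06. In IMF cells, 0 members were called by limma from day 0 to day 2 (0.787% of all genes), with 1 at an unadjusted p under 0.05 (21.2% of all genes). From day 2 to day 4, 1 member was called (0.0372% of all genes), and from day 4 to day 8, 2 were (7.25% of all genes). Over the whole course in IMF, 3 members were called (9.04% of all genes), with a median of 0.68 against -0.05. Every call within a depot was a rise. Against BF, IMF cells had 1 member called on day 0 (2.58% of all genes), 3 on day 2 (4.74%), 6 on day 4 (11.3%) and 3 on day 8 (6.96%). All of these were lower in IMF. The members' median difference between depots was 0.12 on day 0, -0.70 on day 2, -1.41 on day 4 and 0.22 on day 8, while the median over all tested genes lay between 0.02 and 0.07. SOD1 and HMOX1 were called in 0 of the 12 comparisons, and the other 8 members in 2 to 7 each.

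**Figure D1:**
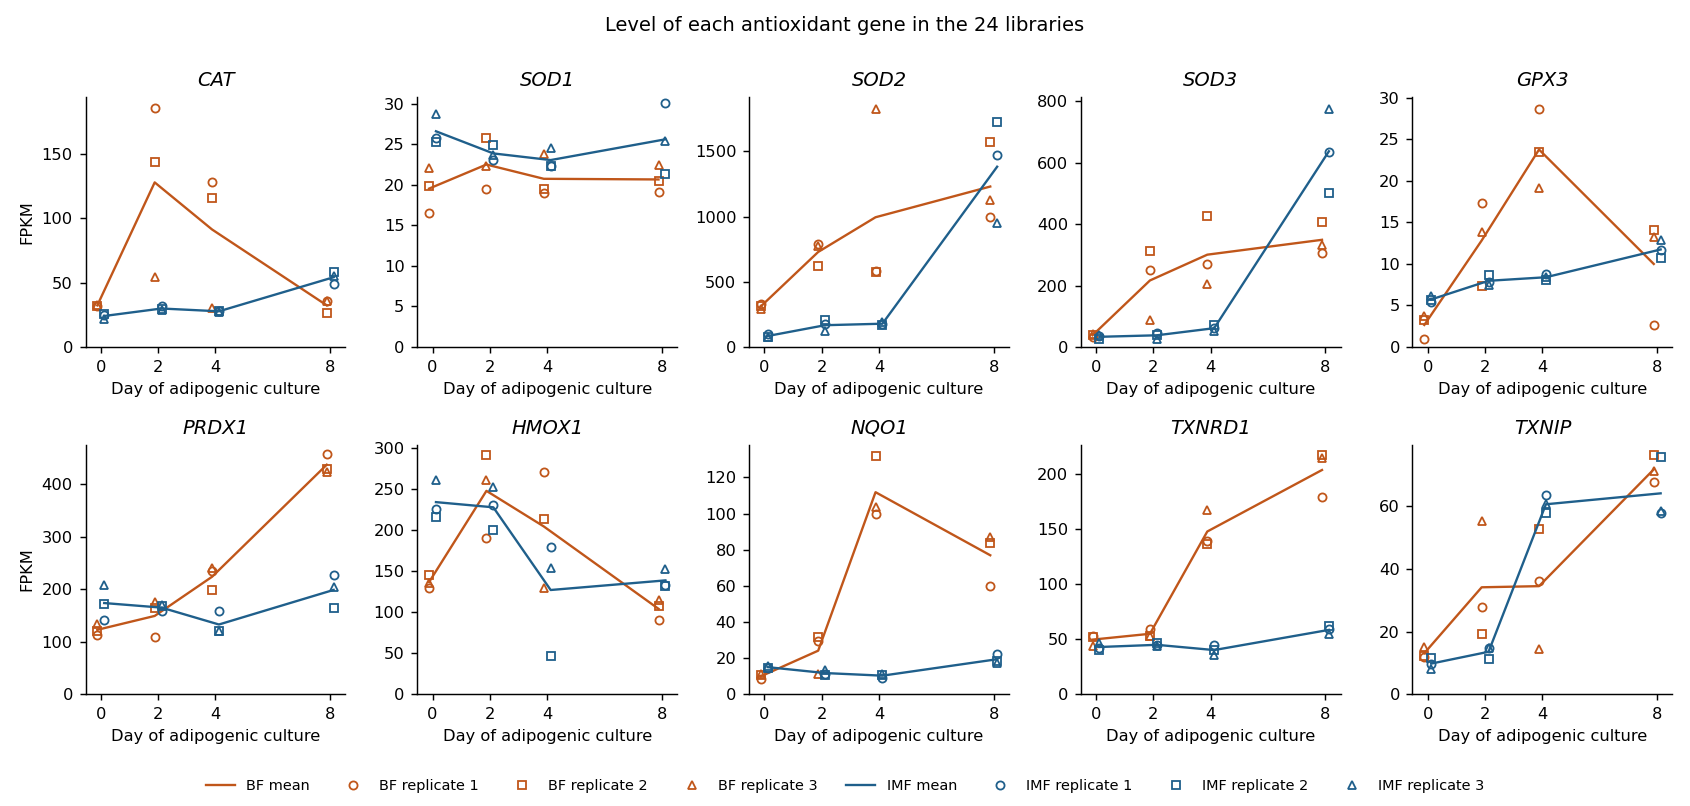
FPKM of the 10 genes in each library (symbols) and group means (lines) by day of adipogenic culture, BF in orange and IMF in blue, with each vertical axis from 0. SOD2 and SOD3 were above day 0 from day 2 in BF and highest on day 8 in IMF, and NQO1, TXNRD1 and PRDX1 rose in BF and were lower in IMF on day 8. The BF mean of CAT peaked at day 2, with replicate 3 of that day below replicates 1 and 2.

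**Figure D2:**
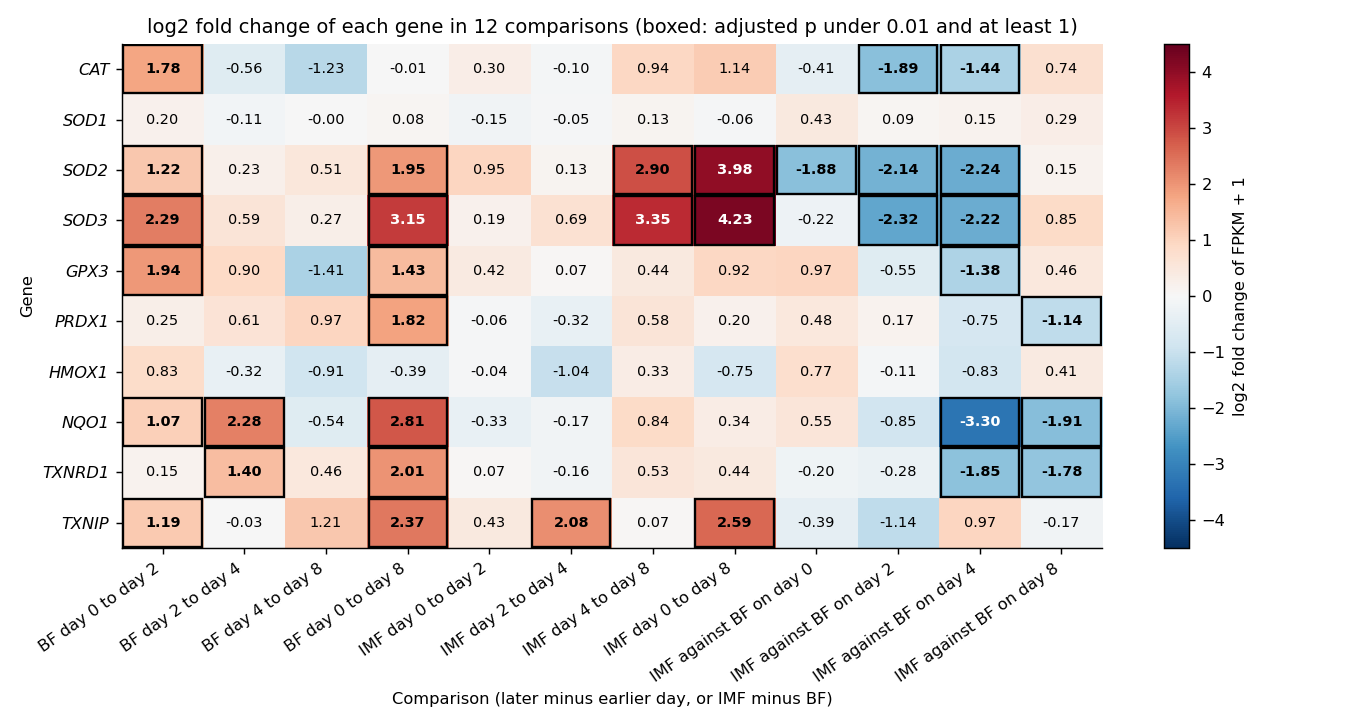
Fitted log2 fold changes of FPKM + 1 for the 10 genes (rows) in 12 comparisons (columns), with called values boxed in black. Within a depot every boxed value is positive, between depots every boxed value is negative, and the rows of SOD1 and HMOX1 hold no box.

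The superoxide dismutases differed from each other in course. SOD1, the cytosolic copper and zinc enzyme, kept a narrow range, from 16.6 to 30.1 FPKM over the 24 libraries, and its group means differed at most 1.36-fold. Its largest difference, IMF against BF on day 0, was 0.43 (SE 0.13, adjusted p = 0.0318), below the fold limit. All other log2 differences of SOD1 in the pairwise comparisons lay between -0.15 and 0.29. The groups next to each other in the order of SOD1 means overlapped in every case.

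SOD2, the mitochondrial manganese enzyme, had the highest median of the members over the 24 libraries. In IMF-0d its mean of 84.3 FPKM lay below those of HMOX1 (234) and PRDX1 (174), and in IMF-2d its mean of 167 FPKM lay below that of HMOX1 (228). BF libraries held 334, 313 and 289 FPKM on day 0 and 792, 624 and 771 FPKM on day 2 (replicates 1, 2 and 3, an order kept below). On day 4 they held 584, 573 and 1829 FPKM, and on day 8 994, 1570 and 1128 FPKM. The BF-0d libraries lay below all later BF libraries. BF-4d overlapped with both BF-2d and BF-8d, and BF-8d lay above BF-2d. The rise in BF from day 0 to day 8 was 1.95 (SE 0.32, adjusted p = 4.15e-05) on the log2 scale. The first step, from day 0 to day 2, was 1.22 (SE 0.32, adjusted p = 0.0063). That step lost its call without any 1 of the 6 libraries, with adjusted p from 0.0122 to 0.0248, and under quantile normalization (0.79, adjusted p = 0.077). In IMF cells SOD2 stood at 96.6, 79.8 and 76.7 FPKM on day 0 and 174, 205 and 123 FPKM on day 2. It was 179, 169 and 188 FPKM on day 4 and 1475, 1725 and 949 FPKM on day 8. IMF-8d was thus above every earlier IMF library, and the mean rose 7.74-fold from day 4 to day 8, by 2.90 (SE 0.32, adjusted p = 1.04e-06). Between depots, SOD2 was lower in IMF with no overlap on day 0, at -1.88 (SE 0.32, adjusted p = 0.000329), on day 2, at -2.14 (SE 0.32, adjusted p = 8.68e-05), and on day 4, at -2.24 (SE 0.32, adjusted p = 1.3e-05). Without BF-4d replicate 3, whose 1829 FPKM was the highest of all libraries, the day 4 difference was -1.69 (adjusted p = 1.19e-05). On day 8 the depots overlapped, at 0.15 (adjusted p = 0.755).

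SOD3, the secreted enzyme of the extracellular matrix, followed a like course at lower level. In BF it stood at 33.9, 39.7 and 40.9 FPKM on day 0 and at 250.1, 312 and 87.7 FPKM on day 2. Later values were 271, 426 and 205 FPKM on day 4 and 307, 408 and 332 FPKM on day 8. BF-2d replicate 3 was the lowest of the induced BF libraries and still above all 3 BF-0d libraries. The change in BF was 2.29 (SE 0.34, adjusted p = 4.93e-05) from day 0 to day 2 and 3.15 (SE 0.34, adjusted p = 3.19e-07) from day 0 to day 8. Without BF-2d replicate 3 the first of these was 2.84. That call was lost when the fit held no libraries but those of BF-0d and BF-2d (adjusted p = 0.0223). IMF cells held 34.3, 25.1 and 40.2 FPKM on day 0 and 46.8, 40.2 and 27.3 FPKM on day 2. They held 61.0, 71.5 and 51.2 FPKM on day 4 and 635, 500.4 and 776 FPKM on day 8. The last interval raised the mean 10.4-fold, by 3.35 (SE 0.34, adjusted p = 4.57e-07), and IMF-8d lay above every library of the other 7 groups. On day 0 the depots overlapped. SOD3 was lower in IMF on day 2, at -2.32 (SE 0.34, adjusted p = 8.01e-05), and on day 4, at -2.22 (SE 0.34, adjusted p = 3.22e-05). Without replicate 3 of BF-2d and of BF-4d these were -2.88 and -2.47. On day 8 the value was 0.85 (SE 0.34, adjusted p = 0.0586) and was not called. The day 2 call was lost with only those 6 libraries in the fit (adjusted p = 0.0467).

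CAT, the peroxisomal enzyme that splits hydrogen peroxide into water and oxygen, had a passing maximum in BF. It was 32.1, 32.0 and 32.7 FPKM on day 0 and 186, 143 and 54.2 FPKM on day 2. On day 4 it was 128, 115 and 30.2 FPKM and on day 8 35.5, 26.0 and 35.4 FPKM. Replicates 1 and 2 of days 2 and 4 lay at 115 FPKM or more. Replicate 3 was at 54.2 FPKM on day 2, above day 0, and at 30.2 FPKM on day 4, within the range of day 8. The mean rose 3.96-fold from day 0 to day 2, by 1.78 (SE 0.39, adjusted p = 0.00177). Without BF-2d replicate 3 the rise was 2.30 (adjusted p = 4.67e-05). The call was lost without BF-2d replicate 1 (1.42, adjusted p = 0.0147) or replicate 2 (1.61, adjusted p = 0.0149), and with only the 6 libraries compared in the fit (adjusted p = 0.037). From day 4 to day 8 CAT was -1.23 (SE 0.39, adjusted p = 0.033), not called, and -1.89 (adjusted p = 0.000116) without BF-4d replicate 3. BF-8d and BF-0d overlapped, with means of 32.3 FPKM each and a difference of -0.01 (SE 0.39, adjusted p = 0.987). The summed adipocyte markers were 735, 588 and 80.6 FPKM in the same BF-2d libraries and 456, 563 and 266 FPKM in BF-4d. PCK1, the gluconeogenic and glyceroneogenic enzyme among them, was 612, 461 and 24.5 FPKM in BF-2d. The part of these markers in the CAT result was not tested.

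In IMF cells CAT lay between 21.8 and 31.5 FPKM until day 4. The libraries held 25.0, 25.3 and 21.8 FPKM on day 0 and 31.5, 29.7 and 28.3 FPKM on day 2. They held 28.0, 28.1 and 26.9 FPKM on day 4 and 49.2, 57.8 and 55.3 FPKM on day 8. All 3 IMF-8d libraries lay above all earlier IMF libraries and above all 3 BF-8d libraries. The change over the whole course was 1.14 (SE 0.39, adjusted p = 0.0281), above the adjusted p limit of 0.01 and so not called. CAT was lower in IMF than in BF on day 2, at -1.89 (SE 0.39, adjusted p = 0.00173), and on day 4, at -1.44 (SE 0.39, adjusted p = 0.00593). Without BF-2d replicate 3 the first was -2.41, and without BF-4d replicate 3 the second was -2.09. With only the libraries compared in the fit both calls were lost (adjusted p = 0.0564 and 0.0714). The day 2 call was also lost without BF-2d replicate 1 or 2, with adjusted p of 0.0133 and 0.0158. The day 4 call was kept in 1 of the 6 fits without a library, that without BF-4d replicate 3, with adjusted p from 0.0175 to 0.0434 in the other 5. Day 0 and day 8 gave -0.41 and 0.74, neither called, although the libraries of the depots did not overlap.

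GPX3, the secreted selenium-dependent glutathione peroxidase, had the lowest median of the members over the 24 libraries, 8.53 FPKM. In BF-4d its mean of 23.8 FPKM was above that of SOD1 (20.7). BF held 0.991, 3.28 and 3.69 FPKM on day 0 and 17.3, 7.32 and 13.9 FPKM on day 2. It reached 28.7, 23.5 and 19.1 FPKM on day 4 and was 2.65, 14.1 and 13.2 FPKM on day 8. Replicate 1 of BF-8d lay among the BF-0d values, while replicates 2 and 3 lay above them. GPX3 rose by 1.94 (SE 0.39, adjusted p = 0.000866) from day 0 to day 2, a call lost with only those 6 libraries in the fit (adjusted p = 0.0274). Without BF-2d replicate 3 this rise was 1.85. The change of GPX3 from day 0 to day 8 was 1.43 (SE 0.39, adjusted p = 0.0051). The latter was not called without BF-0d replicate 1 (1.04), BF-8d replicate 2 (1.08) or BF-8d replicate 3 (1.12), and was 2.10 without BF-8d replicate 1. In IMF the levels were 5.39, 5.61 and 6.17 FPKM on day 0 and 7.80, 8.67 and 7.45 FPKM on day 2. Later they were 8.74, 8.06 and 8.39 FPKM on day 4 and 11.7, 10.7 and 12.8 FPKM on day 8. IMF-8d lay above all earlier IMF libraries, but no interval was called, and the change over the course was 0.92 (SE 0.39, adjusted p = 0.0744). On day 4 GPX3 was lower in IMF, at -1.38 (SE 0.39, adjusted p = 0.00798), a call lost without any 1 of the 6 libraries (adjusted p from 0.0112 to 0.0328). Without BF-4d replicate 3 it was -1.52.

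PRDX1, a cytosolic peroxidase that draws on thioredoxin, rose late in BF. Its levels were 113, 121 and 135 FPKM on day 0 and 109, 164 and 176 FPKM on day 2. They were 234, 198 and 239.8 FPKM on day 4 and 458, 429.5 and 424 FPKM on day 8. BF-8d stood above every other library of the 24. The change over the course in BF was 1.82 (SE 0.17, adjusted p = 4.82e-08), and the last interval gave 0.97 (SE 0.17, adjusted p = 0.000669), just under the fold limit. Without BF-4d replicate 3 the last interval was 1.02 and was called. In IMF, PRDX1 ranged from 120.2 to 226.7 FPKM, and the change over the course was 0.20 (SE 0.17, adjusted p = 0.401). On day 8 IMF libraries held 227, 165 and 205 FPKM, all below BF, with a difference of -1.14 (SE 0.17, adjusted p = 3.93e-05). This call was kept in each of the 6 fits without a library and under the 9 other settings.

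Among the stress-inducible enzymes, HMOX1, which opens the haem ring, was not called. BF levels were 129, 145 and 136 FPKM on day 0 and 191, 292 and 261 FPKM on day 2. They were 270.3, 214 and 129 FPKM on day 4 and 90.8, 107 and 115 FPKM on day 8. BF-2d lay above BF-0d in all 3 libraries, by 0.83 (SE 0.33, adjusted p = 0.0617), and BF-8d lay below BF-0d. IMF held 226, 216 and 261 FPKM on day 0 and 231, 200.2 and 252 FPKM on day 2. It held 180.0, 47.3 and 154 FPKM on day 4 and 133, 132 and 152 FPKM on day 8. The change from day 2 to day 4 in IMF was -1.04 (SE 0.33, adjusted p = 0.274), and -0.44 without IMF-4d replicate 2, whose 47.3 FPKM was the lowest HMOX1 level of all. The order of HMOX1 group means had overlap between all neighbours.

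NQO1, the quinone reductase, had the largest difference between depots of the 10 members. In BF it was 8.42, 10.6 and 11.11 FPKM on day 0 and 29.4, 32.0 and 11.3 FPKM on day 2. It was 99.8, 132 and 104 FPKM on day 4 and 59.8, 83.9 and 87.1 FPKM on day 8. The BF-4d and BF-8d libraries lay above every other library, and BF-2d replicate 3 lay close to BF-0d. NQO1 rose by 1.07 (SE 0.25, adjusted p = 0.00265) from day 0 to day 2 and by 2.28 (SE 0.25, adjusted p = 7.33e-06) from day 2 to day 4. Without BF-2d replicate 3 the second of these was 1.82, and without BF-4d replicate 3 it was 2.33. The first was no longer called without BF-0d replicate 1 (0.96), BF-2d replicate 1 (0.87) or BF-2d replicate 2 (0.81), and was 1.53 without BF-2d replicate 3. Both were lost with only the 6 libraries compared in the fit (adjusted p = 0.0982 and 0.135). Over the course in BF the change was 2.81 (SE 0.25, adjusted p = 2.2e-08). In IMF, NQO1 was 14.7, 14.8 and 15.8 FPKM on day 0 and 11.3, 10.7 and 13.5 FPKM on day 2. It was 9.22, 10.7 and 11.3 FPKM on day 4 and 22.1, 18.7 and 17.7 FPKM on day 8. No IMF interval was called, the last giving 0.84 (SE 0.25, adjusted p = 0.0127). On day 4 the BF mean was 10.8-fold that of IMF, a difference of -3.30 (SE 0.25, adjusted p = 4.87e-09), and on day 8 the difference was -1.91 (SE 0.25, adjusted p = 8e-06). Both were kept in all 6 fits without a library and under all 9 other settings.

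TXNRD1, the cytosolic thioredoxin reductase, changed in the same interval. BF libraries held 53.2, 51.6 and 44.2 FPKM on day 0 and 59.0, 52.6 and 53.2 FPKM on day 2. They held 139, 136 and 167 FPKM on day 4 and 179, 217 and 214 FPKM on day 8. Days 0 and 2 overlapped, and BF-4d and BF-8d lay above all other libraries. The step from day 2 to day 4 was 1.40 (SE 0.11, adjusted p = 2.06e-07), and the course from day 0 to day 8 2.01 (SE 0.11, adjusted p = 7.2e-11). In a fit of these 6 libraries alone the step was not called (adjusted p = 0.106), and without replicate 3 of BF-2d and of BF-4d it was 1.29. IMF libraries ranged from 36.0 to 61.7 FPKM over all days. IMF-8d, at 59.3, 61.7 and 54.5 FPKM, lay above the earlier IMF days, a change over the course of 0.44 (SE 0.11, adjusted p = 0.00452), below the fold limit. TXNRD1 was lower in IMF on day 4, at -1.85 (SE 0.11, adjusted p = 3.17e-10), and on day 8, at -1.78 (SE 0.11, adjusted p = 4.53e-10), and these 2 calls were kept in every alternative fit. The day 4 value was -1.76 without BF-4d replicate 3.

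TXNIP, an alpha-arrestin that binds thioredoxin, was the 1 member called in IMF before day 8. In IMF it stood at 9.72, 11.6 and 8.09 FPKM on day 0 and 14.7, 11.3 and 14.8 FPKM on day 2. It stood at 63.3, 57.6 and 60.3 FPKM on day 4 and 57.7, 75.5 and 58.3 FPKM on day 8. The mean rose 4.45-fold from day 2 to day 4, by 2.08 (SE 0.33, adjusted p = 0.0057), in an interval where 6 of the 16135 tested genes were called. That call was lost without any 1 of the 6 libraries, with adjusted p from 0.0227 to 0.045, and the fold change then lay between 1.96 and 2.15. It was also lost with a pseudocount of 0.1, with no filter on low values and with the replicate number as a block (adjusted p = 0.0159, 0.0101 and 0.0128). Over the course in IMF, TXNIP rose by 2.59 (SE 0.33, adjusted p = 4.27e-06). BF held 11.9, 12.3 and 15.1 FPKM on day 0 and 27.7, 19.2 and 55.2 FPKM on day 2. It held 35.9, 52.7 and 14.6 FPKM on day 4 and 67.6, 75.9 and 70.9 FPKM on day 8. BF-2d replicate 3 was the highest of its group and BF-4d replicate 3 the lowest of its group. The rise in BF over the course was 2.37 (SE 0.33, adjusted p = 6.79e-06). Its first step, 1.19 (SE 0.33, adjusted p = 0.00961), was kept in 1 of 6 fits without a library (without BF-2d replicate 2) and was 0.78 (adjusted p = 0.0609) without BF-2d replicate 3. Between depots TXNIP was not called on any day, from -1.14 on day 2 to 0.97 on day 4. Without replicate 3 of BF-2d and of BF-4d these values were -0.73 and 0.46.

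**Figure D3:**
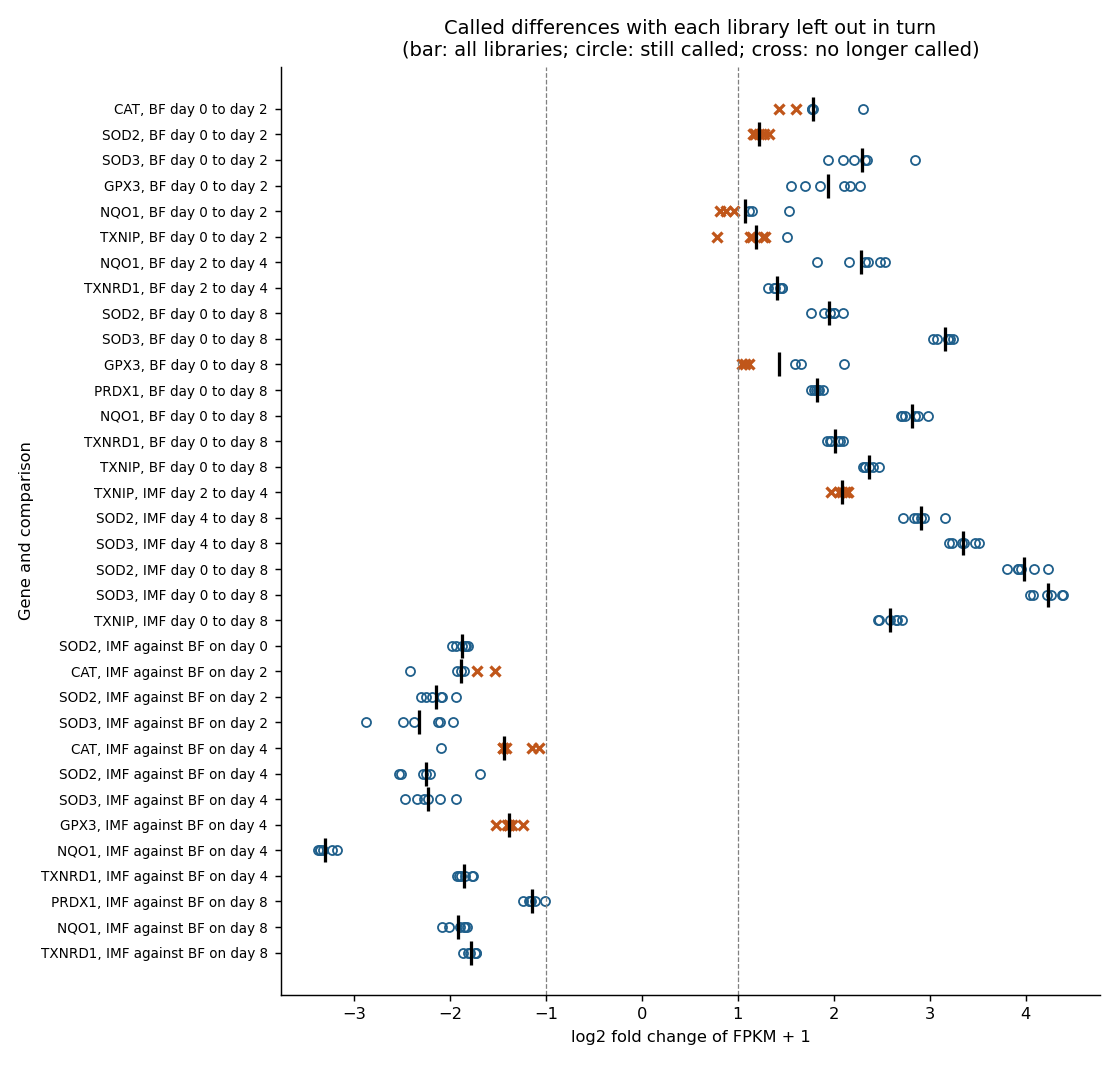
log2 fold changes of FPKM + 1 for the 34 called differences of members, with all libraries (black bar) and with each of the 6 libraries compared left out in turn (blue circles still called, orange crosses no longer called), dashed lines at the fold limits of -1 and 1. No value changed sign, and the crosses fall on CAT, GPX3, TXNIP, NQO1 and SOD2 differences of BF days 0 to 2 and 0 to 8, IMF days 2 to 4 and the depots on days 2 and 4.

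Whether a change differed between depots was tested directly, as the change in IMF minus the change in BF over the same interval. From day 0 to day 2, 1 member was called (2.45% of all tested genes), SOD3 at -2.10 (SE 0.49, adjusted p = 0.00888). It was kept in 2 of 12 fits without a library and was -2.66 (adjusted p = 3.54e-05) without BF-2d replicate 3, where CAT (adjusted p = 0.00565) and NQO1 (-1.86, adjusted p = 6.71e-06) were called too. From day 2 to day 4, 3 members were called (3.06% of all genes). The change of NQO1, at -2.45 (SE 0.35, adjusted p = 0.000407), and that of TXNRD1, at -1.57 (SE 0.16, adjusted p = 1.68e-05), was lower in IMF. The change of TXNIP, at 2.11 (SE 0.47, adjusted p = 0.00659), was higher in IMF, and its call was kept in 4 of 12 fits without a library. The TXNIP difference was 1.20 without BF-2d replicate 3 and BF-4d replicate 3, a choice made after seeing the data. Under the same choice NQO1 was -2.04 and TXNRD1 -1.45, both called. With only the libraries compared in the fit, the NQO1 call was lost (adjusted p = 0.0203).

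From day 4 to day 8, 4 members were called (6.39% of all genes), all with the higher change in IMF. SOD3 differed by 3.08 (SE 0.49, adjusted p = 0.000191) and SOD2 by 2.40 (SE 0.45, adjusted p = 0.000938), the latter not called with only the libraries compared in the fit (adjusted p = 0.0124). CAT differed by 2.17 (SE 0.56, adjusted p = 0.00951), from changes of -1.23 in BF and 0.94 in IMF, neither of which was called on its own. NQO1 differed by 1.39 (SE 0.35, adjusted p = 0.00928). The CAT call was kept in 1 of 12 fits without a library, that without BF-4d replicate 3 (adjusted p = 5.48e-05), and the NQO1 call in 0 of 12. Without BF-4d replicate 3, SOD2 differed by 1.84, SOD3 by 3.32 and CAT by 2.83. Over the course from day 0 to day 8, 4 members were called (4.98% of all genes). The change of SOD2 was higher in IMF, at 2.03 (SE 0.45, adjusted p = 0.00374), with its call kept in 7 of 12 fits without a library (adjusted p up to 0.0115 in the others). The change was lower in IMF for PRDX1, at -1.62 (SE 0.24, adjusted p = 0.000125), for NQO1, at -2.47 (SE 0.35, adjusted p = 8.03e-05), and for TXNRD1, at -1.57 (SE 0.16, adjusted p = 1.28e-06). These 3 calls were kept in all 12. SOD3, which rose in both depots, was not called here, at 1.07 (SE 0.49, adjusted p = 0.137).

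**Figure D4:**
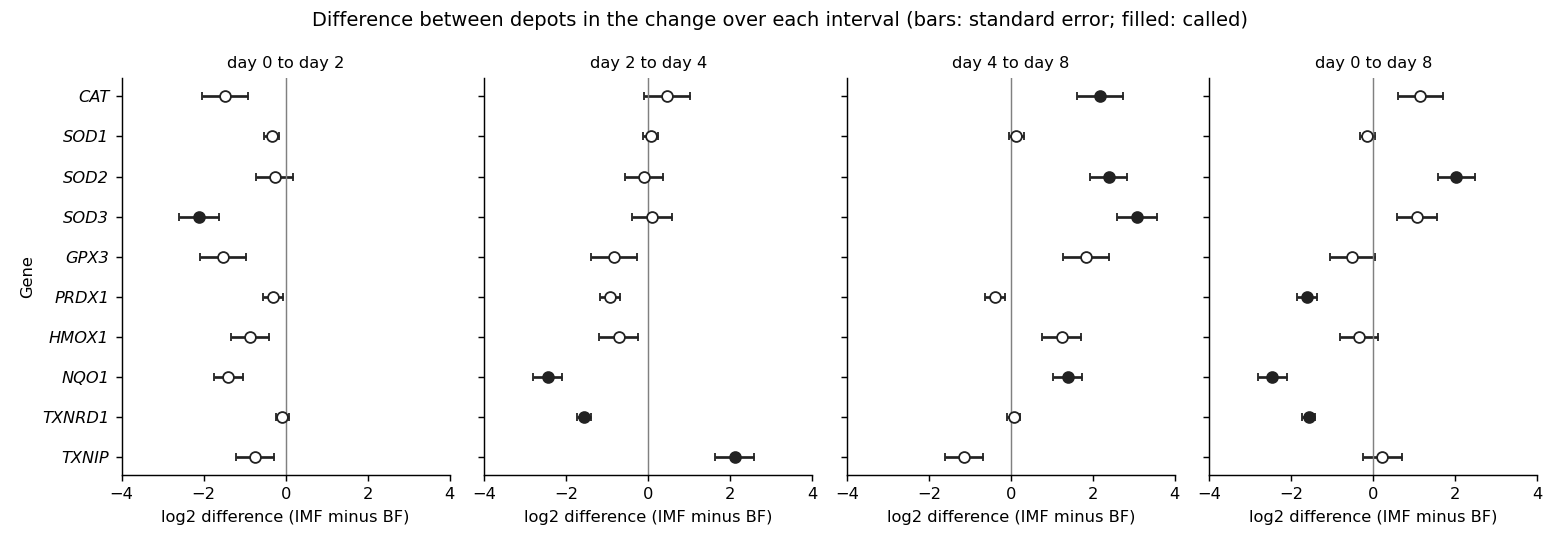
Difference between depots (change in IMF minus change in BF, log2 of FPKM + 1, points with SE bars) for the 10 genes over 4 intervals, filled where called. NQO1 and TXNRD1 lie left of 0 from day 2 to day 4, SOD2 and SOD3 lie right of 0 from day 4 to day 8, and SOD1 stays near 0 in each panel.

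The wider NRF2 list held 21 genes, of which 19 were tested and 4 are members. In BF, 9 of the 19 were higher and 0 lower over the whole course, where 13.7% of all tested genes were called, with a median log2 fold change of 0.88 against -0.06 over all tested genes. In IMF, 3 were higher and 0 lower (9.04% of all genes called), with a median of 0.14 against -0.05. Against BF, 0 of the 19 were called on day 0 (2.58% of all genes), and 1 was lower in IMF on day 2 (4.74%), a share near that of all genes. On day 4, 8 were lower (11.3% of all genes called), and on day 8, 6 were (6.96%). SLC7A11, the cystine importer of glutathione synthesis, had BF means of 14.4 FPKM on day 0, 4.38 on day 2, 45.0 on day 4 and 47.8 on day 8. It changed by -1.61 (SE 0.31, adjusted p = 0.000494) at first and rose by 3.06 (SE 0.31, adjusted p = 2.82e-06) in the next interval. Without replicate 3 of BF-2d and of BF-4d these were -1.82 and 2.86, and the day 4 difference of ABCC1 named next was -2.33. IMF means of SLC7A11 lay between 6.87 and 12.3 FPKM. ABCC1, an exporter of glutathione conjugates, was lower in IMF on day 4, at -2.56 (SE 0.22, adjusted p = 2.93e-08). SRXN1, which restores overoxidised peroxiredoxins, rose in BF by 2.06 (SE 0.19, adjusted p = 4.44e-08) and was lower in IMF on day 8, at -1.04 (SE 0.19, adjusted p = 0.000313). GCLC, the first enzyme of glutathione synthesis, rose in BF by 1.29 (SE 0.19, adjusted p = 1.57e-05) and was lower in IMF on day 8, at -1.50 (SE 0.19, adjusted p = 7.33e-06). The antioxidant response element core was found in 5 of the 21 promoter windows of this list, against 12.2% of all windows.

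**Figure D5:**
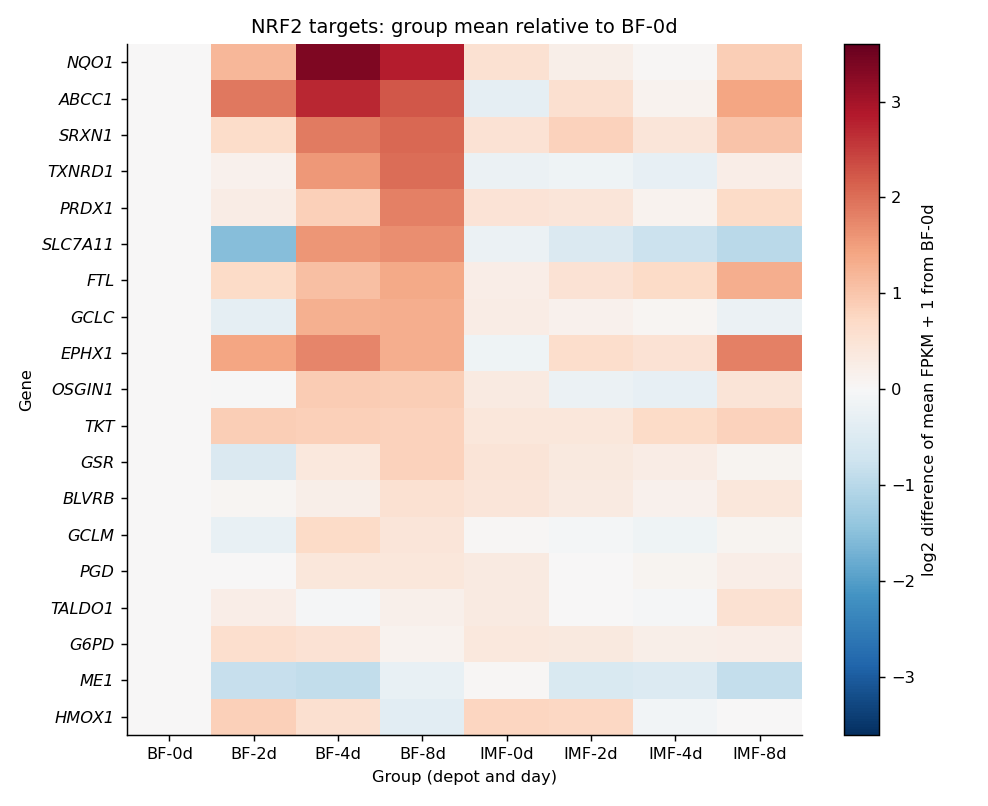
Group means of the 19 tested NRF2 targets (rows, ordered by their value in BF-8d) as log2 differences of mean FPKM + 1 from BF-0d. NQO1, ABCC1, SRXN1, TXNRD1 and PRDX1 head the list in BF-8d, ABCC1, EPHX1 and FTL are raised in IMF-8d, and HMOX1 ends it.

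Of all 16135 tested genes, 23.7% were called in at least 1 of the 12 pairwise comparisons, the share beside which the following counts stand. Of 8 tested regulators of that pathway, 3 were called in some pairwise comparison. NFE2L2 had means of 69.5 FPKM in BF-0d, 51.2 in BF-2d, 83.6 in BF-4d and 88.8 in BF-8d, and of 53.6 to 62.3 FPKM in IMF. It was not called in any of the 12 comparisons, and its largest differences were 0.70 (SE 0.15, adjusted p = 0.00225) in BF from day 2 to day 4 and -0.73 (SE 0.15, adjusted p = 0.00069) for IMF against BF on day 8. KEAP1 was not called either, with differences between -0.39 and 0.30. BACH1, the repressor, had means of 18.8 FPKM in BF-0d, 11.7 in BF-2d, 37.5 in BF-4d and 49.4 in BF-8d, with IMF means of 11.5 to 13.2 FPKM. Between day 2 and day 4 in BF it rose by 1.60 (SE 0.26, adjusted p = 0.000248), together with NQO1 and TXNRD1, and was lower in IMF on day 8, at -1.85 (SE 0.26, adjusted p = 1.62e-05). Without replicate 3 of BF-2d and of BF-4d, the rise of BACH1 was 1.39 (adjusted p = 0.00429) and the day 4 difference of MAFF -3.11. MAFF, a small MAF protein that pairs with both NRF2 and BACH1, rose by 3.59 (SE 0.41, adjusted p = 1.8e-06) between day 4 and day 8 in IMF and was lower in IMF on day 4, at -3.29 (SE 0.41, adjusted p = 3.12e-06). In BF, MAFF rose by 2.15 (SE 0.41, adjusted p = 0.000527) from day 0 to day 2 and by 2.62 (SE 0.41, adjusted p = 2.75e-05) over the course. On day 8 its depot difference was 0.48 (adjusted p = 0.393). SQSTM1, also called, rose in BF over the course by 1.17 (SE 0.21, adjusted p = 8.77e-05).

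The enzyme families around the members were mixed. Of 6 peroxiredoxins, 3 were called in some pairwise comparison (23.7% of all genes). PRDX6, a peroxidase that also acts on phospholipids, was called in the intervals in which SOD3 was, with 39.99, 42.3 and 47.98 FPKM in BF-0d and 299, 337 and 74.7 FPKM in BF-2d. In IMF it went from 55.5, 50.3 and 48.9 FPKM on day 4 to 356, 401 and 392 FPKM on day 8, a rise of 2.87 (SE 0.34, adjusted p = 2.89e-06). PRDX2 rose by 1.42 (SE 0.29, adjusted p = 0.000794) in BF between day 0 and day 2. Of 5 glutathione peroxidases tested, 3 were called. GPX7 fell in BF over the course by 1.16 on the log2 scale (SE 0.10, adjusted p = 7.49e-09), and GPX4, which protects membranes from lipid peroxides, fell by 1.03 (SE 0.15, adjusted p = 1.43e-05). Both were higher in IMF than in BF on day 8, at 1.16 and 1.02. In the thioredoxin system, 4 of 8 tested genes were called, namely TXNIP, SRXN1, TXNRD1 and TXN2, the mitochondrial thioredoxin, which changed by -1.27 (SE 0.32, adjusted p = 0.00286) in BF over the course. Of 27 tested peroxisomal genes, 2 were called, CAT and PHYH. PHYH, an enzyme of phytanic acid breakdown, changed in BF by -1.18 (SE 0.17, adjusted p = 3.02e-05) from day 0 to day 2, the interval in which CAT rose. Without BF-2d and BF-4d replicate 3, the first step in BF was 2.84 for PRDX6, 1.37 for PRDX2 and -1.33 for PHYH.

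Of the glutathione synthesis and recycling genes, 4 of 10 were called in some pairwise comparison (23.7% of all genes). GGT5, a gamma-glutamyl transferase, had 30.4, 28.1 and 8.38 FPKM in BF-2d against 0.450, 0.662 and 0.421 FPKM in IMF-2d, a difference of -3.76 (SE 0.46, adjusted p = 1.1e-05), and -4.32 without the replicates 3 of BF-2d and BF-4d. In the list of haem breakdown and iron storage, 2 of 7 tested genes were called, FTL and SLC40A1. FTL, the ferritin light chain, rose over the course by 1.36 (SE 0.17, adjusted p = 1.94e-06) in BF and by 1.08 (SE 0.17, adjusted p = 5.17e-05) in IMF, a depot difference of -0.28 (SE 0.24, adjusted p = 0.469) that was not called. SLC40A1, the iron exporter, was lower in IMF on day 8, at -1.40 (SE 0.22, adjusted p = 7.51e-05). Of the 7 tested genes listed with TXNIP as alpha-arrestins and glucose-sensing factors, 4 were called. ARRDC4, a close relative of TXNIP, rose over the course by 2.38 (SE 0.20, adjusted p = 8.76e-09) in BF and 2.74 (SE 0.20, adjusted p = 2.65e-09) in IMF. ARRDC3 rose by 4.00 (SE 0.34, adjusted p = 1.23e-08) in BF, and ARRDC2 by 2.17 (SE 0.14, adjusted p = 8.63e-10) in IMF from day 4 to day 8. In IMF, ARRDC4 was called from day 0 to day 2 (1.37 (SE 0.20, adjusted p = 0.000185)), TXNIP from day 2 to day 4, and ARRDC3 and ARRDC2 from day 4 to day 8.

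Likeness of pattern was described by Pearson's r of log2(FPKM + 1) over the 24 libraries, among 9479 genes with a symbol and a mean of at least 1 FPKM. The libraries share groups and culture, so r describes the shared course only and carries no p. Nearest to CAT were CARHSP1 (0.946), GATA2 (0.93), GNA14 (0.924), PAPSS1 (0.923) and PIK3C2B (0.913). Each of these 5 had its 2 highest group means in BF-2d and BF-4d. For SOD2 the nearest were MAP3K8 (0.943), PDXK (0.932) and GRINA (0.931), and for SOD3 ADAMTS7 (0.976), MMP19 (0.971) and ITM2C (0.965). NQO1 ran closest to NOTCH1 (0.953), RESF1 (0.951) and FZD5 (0.95), TXNRD1 to CALCRL (0.976), ATP13A3 (0.967) and RGS17 (0.965), and PRDX1 to NOCT (0.89), CDKN1A (0.881) and CYP26B1 (0.875). GPX3 had OXA1L (0.851), PNRC2 (0.82) and PITPNC1 (0.817), and TXNIP had ARRDC4 (0.809), VCAM1 (0.803) and DLG4 (0.788). SOD1 (POMP 0.882, NDUFB2 0.86, ARPC5L 0.86) and HMOX1 (EIF4A1 0.708, PRELID1 0.696, C1QBP 0.681) had no call of their own. Among the members themselves the highest r were 0.917 for NQO1 with TXNRD1, 0.869 for SOD2 with SOD3 and 0.83 for PRDX1 with TXNRD1. CAT had its highest r among members with SOD3 (0.59), and its r with PRDX1 was -0.07.

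By level, SOD2 (median 453 FPKM over the 24 libraries), PRDX1 (169) and HMOX1 (167) stood highest, and the median of SOD2 was above that of 99.6% of the genes in the table. SOD3 (79.6), TXNRD1 (52.9), CAT (32.1) and TXNIP (31.8) came next, followed by SOD1 (22.4), NQO1 (15.3) and GPX3 (8.53). The fold between the highest and lowest group mean was 19.2 for SOD3, 16.4 for SOD2, 8.96 for GPX3, 7.29 for TXNIP, 5.31 for CAT, 5.05 for TXNRD1, 3.55 for PRDX1, 2.38 for HMOX1 and 1.36 for SOD1, and the group means of NQO1 ran from 10.04 to 111.8 FPKM. The highest group was IMF-8d for SOD2 and SOD3, BF-2d for CAT and HMOX1, BF-4d for GPX3 and NQO1, BF-8d for PRDX1, TXNRD1 and TXNIP, and IMF-0d for SOD1.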

How the data were processed

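Primary preadipocytes from 2 depots were sequenced on 4 days with 3 replicates each, and groups were taken from the sample labels. The authors aligned reads to Sscrofa11.1 with HISAT2 and assembled and quantified transcripts with StringTie (version 1.3.4d in the submitters' processing notes), and the FPKM values they deposited, which are scaled to transcript length and to the mapped fragments of each library, were used as given. The sequencing statistics that the study gives per sample were not used here. The table holds no read counts, and low values were not whole multiples of 1 read, so the number of reads behind a gene's value was not recovered and no counting interval is given. DESeq2, which the authors used (version 1.6.3 in the notes), needs counts and was not run here.

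Genes with a summed FPKM above 1 over the 24 libraries (16135) were fitted on log2(FPKM + 1) with limma 3.58.1 in R 4.3.3, with 1 coefficient per group over all libraries, empirical Bayes moderation and Benjamini-Hochberg adjustment over all tested genes. The pseudocount of 1 shrinks changes of low genes. Calls needed an adjusted p under 0.01 and a log2 fold change of 1 or more in size. The fit was tested on simulated data. Alternatives were a pseudocount of 0.1, no filter, a mean of at least 1 FPKM, other scalings and moderation, the replicate number as a block, the compared libraries alone, an adjusted p under 0.05 with no fold limit, and each library left out in turn. Leaving out BF-2d and BF-4d replicate 3 together was chosen after seeing the data.

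The genes named are the 10 members, genes of the pathway lists called in some comparison or known as pathway regulators, and for each member the genes with the highest Pearson's r. The members and lists were chosen with earlier results of these data known. Symbols came from the RefSeq tables, which paired 14815 of 21271 Ensembl identifiers with a symbol, and promoter windows and positions from the RefSeq annotation of Sscrofa11.1.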

Additional observations from a re-analysis of the deposited data

Results flagged for a closer look

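The changes of several members differed between depots by the test of the difference itself (limma, adjusted p under 0.01), in 12 instances, given here as the change in IMF minus the change in BF on the log2 scale. From day 0 to day 2 this was SOD3, at -2.10. From day 2 to day 4 it was NQO1 at -2.45, TXNRD1 at -1.57 and TXNIP at 2.11. From day 4 to day 8 it was CAT at 2.17, SOD2 at 2.40, SOD3 at 3.08 and NQO1 at 1.39. Over the whole course it was SOD2 at 2.03, PRDX1 at -1.62, NQO1 at -2.47 and TXNRD1 at -1.57. Of these 12 calls, 5 were kept under every alternative, namely TXNRD1 from day 2 to day 4, SOD3 from day 4 to day 8, and PRDX1, NQO1 and TXNRD1 over the whole course. The SOD3 difference of the first interval and the CAT difference of the last involve BF-2d replicate 3 and BF-4d replicate 3, and were -2.66 and 2.83 without the library concerned. That of TXNIP from day 2 to day 4 involves both libraries, and was 1.20 without them. That of SOD2 from day 4 to day 8 involves BF-4d replicate 3, and was 1.84 without it.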

How the results depend on the processing

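Of the 34 calls between groups, 20 were kept under every alternative, and 0 of all values reversed. Counts of called members moved as follows, with the share of all tested genes called under the same setting in parentheses. With only the libraries compared in the fit, 1 member was called in BF in the first interval (1.47%), 0 in the second (0%) and 1 between depots on day 2 (0.663%). The depot differences then had 0, 1 and 2 calls in the intervals from day 0 to 2 (0.818%), 2 to 4 (0.205%) and 4 to 8 (5.78%). With an adjusted p under 0.05 and no fold limit, 5 were called in BF from day 4 to day 8 (19.0%), 5 in IMF from day 4 to day 8 (35.1%), 5 in IMF over the course (37.0%), 2 between depots on day 0 (14.1%), 5 on day 2 (25.9%) and 2 in the depot difference of the first interval (13.6%). In BF from day 4 to day 8, median ratio scaling called 2 (3.14%), quantile normalization 1 (3.09%) and leaving out both libraries that stood apart 3 (5.52%), against 0 (2.93%). In IMF from day 2 to day 4, a pseudocount of 0.1 (0.0124%), no filter (0.0184%) and the replicate block (0.0248%) each called 0, against 1 (0.0372%). The depot difference of the first interval had 0 calls with no filter (1.3%), median ratio scaling (2.66%), quantile normalization (2.76%) or other moderation (2.37%), and 3 without both libraries (8.26%), against 1 (2.45%). That of the interval from day 4 to day 8 had 2 with no filter (4.07%), median ratio scaling (6.29%) or other moderation (6.18%), against 4 (6.39%). Where the share moved as well, nothing about the members is read from a shift. The cause of these shifts was not tested.

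With 1 library left out at a time, the calls in BF were 2 to 4 in the first interval (4.33% to 10% of all genes), 2 in the second (2.51% to 5.27%), 0 to 3 in the last (1.83% to 5.16%) and 6 to 7 over the course (12.7% to 14.3%). In IMF they were 0 (0.428% to 0.694%), 0 (0.0124% to 0.0248%), 2 (6.69% to 7.33%) and 3 (8.36% to 8.94%) in the same order. Between depots they were 1 on day 0 (2.14% to 2.42%), 2 to 4 on day 2 (2.76% to 7.98%), 4 to 5 on day 4 (10.4% to 12.3%) and 3 on day 8 (5.66% to 8%). For the depot differences they were 0 to 3 (1.2% to 7.33%), 2 to 3 (1.67% to 5.45%), 2 to 3 (5.01% to 7.48%) and 3 to 4 (3.95% to 6.12%).

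Whether same-numbered libraries share a piglet is not stated by the labels, and the residuals showed no pairing but cannot exclude it. The residuals of same-numbered libraries correlated from -0.454 to 0.457 (median 0.00136) over 84 pairs, and in 0 of 28 pairs of groups were all 3 above 0.1. With the replicate number as a block, 5 of 46 calls were lost (SOD2 and TXNIP in BF from day 0 to day 2, TXNIP in IMF from day 2 to day 4, and the depot differences of TXNIP from day 2 to day 4 and of NQO1 from day 4 to day 8). The number of reads behind a value was not recovered from the FPKM, which limits statements on the member with the lowest median, GPX3.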

Other observations

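SOD2 is also a textbook target of NF-kB, and of the 13 genes listed for that pathway 12 were called in some pairwise comparison, SOD2 itself among them, against 23.7% of all tested genes. In BF, 10 were higher and 0 lower over the course (13.7% of all genes called), with a median log2 fold change of 2.21 against -0.06 over all tested genes, and in IMF 11 were higher from day 4 to day 8 (7.25%), with a median of 1.87 against -0.07. Between depots 10 were lower in IMF on day 2 (4.74%) and 10 on day 4 (11.3%). The chemokine CXCL8 had BF means of 9.02, 368, 3100 and 3995 FPKM on days 0, 2, 4 and 8, and in IMF 0.872 FPKM on day 4 and 239 FPKM on day 8. The cytokine IL6 had BF means of 4.06 FPKM on day 0 and 2300 FPKM on day 8, and IMF means of 25.9 FPKM on day 4 and 793 FPKM on day 8. TNFAIP3, an inhibitor of the pathway, rose in BF over the course by 2.29 (SE 0.30, adjusted p = 2.51e-06) and in IMF from day 4 to day 8 by 2.23 (SE 0.30, adjusted p = 9.12e-06).

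Of 5 tested sources of oxidants 2 were called in some pairwise comparison (23.7% of all genes), and of 9 genes of NADPH supply 2. NOX4, which produces hydrogen peroxide, was higher in IMF than in BF on day 8 by 2.53 (SE 0.22, adjusted p = 4.37e-08). IDH1, a cytosolic source of NADPH, changed in BF over the course by -2.64 (SE 0.21, adjusted p = 4.24e-09) and in IMF by -1.34 (SE 0.21, adjusted p = 3.93e-05). Of 10 tested genes of the selenoprotein list, 4 were called, and SELENOM, SELENON and SELENOW were higher in IMF on day 8, at 1.38, 1.21 and 1.07. In the FOXO list 8 of 10 genes were called in some pairwise comparison (23.7% of all genes), CAT and SOD2 among them. SESN1, a stress-inducible inhibitor of growth signalling, was higher in IMF on day 8 by 2.35 (SE 0.22, adjusted p = 1.44e-07).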
